A study of Mus musculus with 18 samples.

Results

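The 10 genes described here encode p53 targets and regulators of cell cycle exit: Cdkn1a, Cdkn2a, Mdm2, Ccng1, Bax, Gdf15, Trp53inp1, Phlda3, Eda2r and Sesn2. They were taken by gene name from the 55385 genes measured in mouse kidney. Of the 17575 genes with enough counts to be tested, 9 belong to this set, and Cdkn2a was not among them. PolyA RNA of kidney was sequenced from 18 mice with no treatment in the labels, aged 17.1 to 18 weeks, in 3 genotypes of 6 animals, each with 3 males and 3 females. Dp16 2xIFNRs mice carry the same duplication as Dp16 mice, with the interferon receptor genes inside it returned to the copy number of wild-type. Dp16 mice model trisomy 21 and have an added copy of a long stretch of chromosome 16, the counterpart of much of human chromosome 21. Wild-type mice were C57BL/6J, and the labels name a strain for these animals alone. The duplication is inherited and so present in all tissues.

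The transcription factor p53 accumulates after DNA damage and other stress and switches on genes that stop the cell cycle, trigger cell death or repair damage. Its target Mdm2 encodes the ubiquitin ligase that marks p53 for breakdown, which closes a feedback loop, and Cdkn1a encodes p21, an inhibitor of cyclin-dependent kinases and the best known mediator of p53-dependent arrest. In kidney, p21 is known for its induction in tubule cells after injury, and the products of Cdkn2a are widely used as marks of senescent cells.

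None of the 10 genes lies in the duplicated part of chromosome 16. In build GRCm38 with GENCODE M21, Cdkn1a lies at chr17:29090976-29100727 on the plus strand, Mdm2 at chr10:117688875-117710758 on the minus strand, Ccng1 at chr11:40748552-40755311 on the minus strand and Bax at chr7:45461697-45466898 on the minus strand. Phlda3 lies at chr1:135766119-135769136 on the plus strand, Eda2r at chrX:97333840-97377216 on the minus strand and Gdf15 at chr8:70629393-70632456 on the minus strand. Chromosome 4 holds Trp53inp1 at chr4:11156431-11174379 on the plus strand, Sesn2 at chr4:132492032-132510501 on the minus strand and Cdkn2a at chr4:89274471-89294653 on the minus strand. Cdkn1a, Bax and Sesn2 each overlap an annotated gene, whose counts over all 18 libraries came to 33, 9 and 16, against 16583 for Cdkn1a in total.

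Promoter sequences from RefSeq (build GRCm38.p6, 250 bases before to 50 bases after the start of transcription) were matched for 9 of the 10 genes, in 12 windows. Each was searched on both strands for the p53 half-site, the 10-base motif of 3 purines, C, 2 bases that are A or T, G and 3 pyrimidines, which reads the same on both strands. The half-site was found in 4 of the 9 genes, against 9.55% of the 27025 genes with a window. A full site of 20 bases, made of 2 adjacent half-sites with at most 2 mismatches, was found in 2 of the 9 genes, against 0.94% of all genes. The sequences of Cdkn1a and Ccng1 are shown because they hold that full site and that of Bax because Bax was, with Cdkn1a, the gene that differed between Dp16 and wild-type. They run 5′ to 3′ on the strand of the gene, with matches to the half-site or full site in capitals, at chr17:29090729-29091028 for the first of 2 Cdkn1a starts, chr11:40755237-40755536 for Ccng1 and chr7:45466849-45467148 for Bax.
Cdkn1a: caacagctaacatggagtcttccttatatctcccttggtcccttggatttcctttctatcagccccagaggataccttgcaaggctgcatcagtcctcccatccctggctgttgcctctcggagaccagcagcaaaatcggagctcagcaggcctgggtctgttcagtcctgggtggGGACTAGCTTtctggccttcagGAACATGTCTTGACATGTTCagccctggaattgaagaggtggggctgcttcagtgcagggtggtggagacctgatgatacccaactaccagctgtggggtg
Ccng1: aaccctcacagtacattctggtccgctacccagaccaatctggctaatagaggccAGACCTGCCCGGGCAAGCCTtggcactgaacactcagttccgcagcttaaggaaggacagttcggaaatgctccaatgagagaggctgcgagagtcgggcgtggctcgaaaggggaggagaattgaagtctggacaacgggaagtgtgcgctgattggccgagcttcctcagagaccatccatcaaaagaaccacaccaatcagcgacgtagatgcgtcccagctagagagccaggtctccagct
Bax: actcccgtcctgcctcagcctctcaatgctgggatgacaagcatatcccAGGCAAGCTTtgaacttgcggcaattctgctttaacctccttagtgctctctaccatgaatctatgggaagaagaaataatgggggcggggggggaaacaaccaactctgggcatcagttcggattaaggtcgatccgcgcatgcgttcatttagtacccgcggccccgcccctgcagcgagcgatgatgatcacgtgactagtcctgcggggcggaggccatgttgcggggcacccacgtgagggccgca
The Cdkn1a full site begins at position -51 from the start and has 1 mismatch, and a separate half-site lies upstream of it. The Ccng1 full site begins at -195, also with 1 mismatch, and the single half-site of Bax begins at -201. The fourth gene was Mdm2, with a half-site at -186. A match here is a run of letters in a window and was not measured as bound.

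Gene counts per library ran between 42157790 and 57814587, and mitochondrial genes took 6.34% to 10.9% of them. Markers of kidney were present in all libraries, with Slc34a1, the phosphate transporter of the proximal tubule, at 4281 to 7561 CPM (counts scaled to the library size) and Umod, a product of the thick ascending limb, at 3531 to 5301 CPM. Summed markers of adrenal gland reached 81.1 CPM in 1 wild-type library, replicate 5, and at most 10.04 CPM in the other 17. Without that library the log2 folds between Dp16 and wild-type were 1.03 for Cdkn1a and 0.33 for Bax, and both were called. Throughout, CPM values are scaled by the normalization of edgeR, and folds are log2 folds from its quasi-likelihood test with sex as a term, with an approximate standard error (SE). A gene is called when its p-value, adjusted over all 17575 genes, is under 0.05. In bulk tissue, fewer cells that express a gene and less RNA per cell cannot be told apart. The labels give these samples as separate animals.

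Per length of transcript, the 10 genes spanned a wide range of levels. Mean levels over the 18 libraries, as RPKM (counts scaled to library size and transcript length), were 64.8 for Ccng1, 29.8 for Bax, 15.4 for Sesn2 and 10.3 for Phlda3, and Mdm2, with 10.96 to 17.2 RPKM in single libraries, lay between the last 2. They were 6.63 for Cdkn1a, 5.16 for Trp53inp1, 4.07 for Gdf15 and 0.154 for Eda2r. Cdkn2a was near the limit of detection, with a mean of 0.0252 RPKM.

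Between Dp16 and wild-type kidneys, Cdkn1a and Bax rose. Cdkn1a was 2.07-fold higher, the steepest rise of the set, and Bax, which encodes a pore-forming activator of cell death, rose by a smaller amount. The other 7 tested genes all had folds above 0 and none was called. Thus 2 of 9 genes were called, both higher, against 4.23% of all genes called and 3.17% called higher. The median log2 fold of the 9 genes was 0.34 and that of all tested genes was -0.01, and 6 of the 9 had an unadjusted p under 0.05, against 17.1% of all genes. Folds above 0 were found for 9 of 9 genes here and for 47.7% of all genes. The genes were chosen with earlier results of these data known, so the comparison with all genes is a description and not a test.

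**Figure D1:**
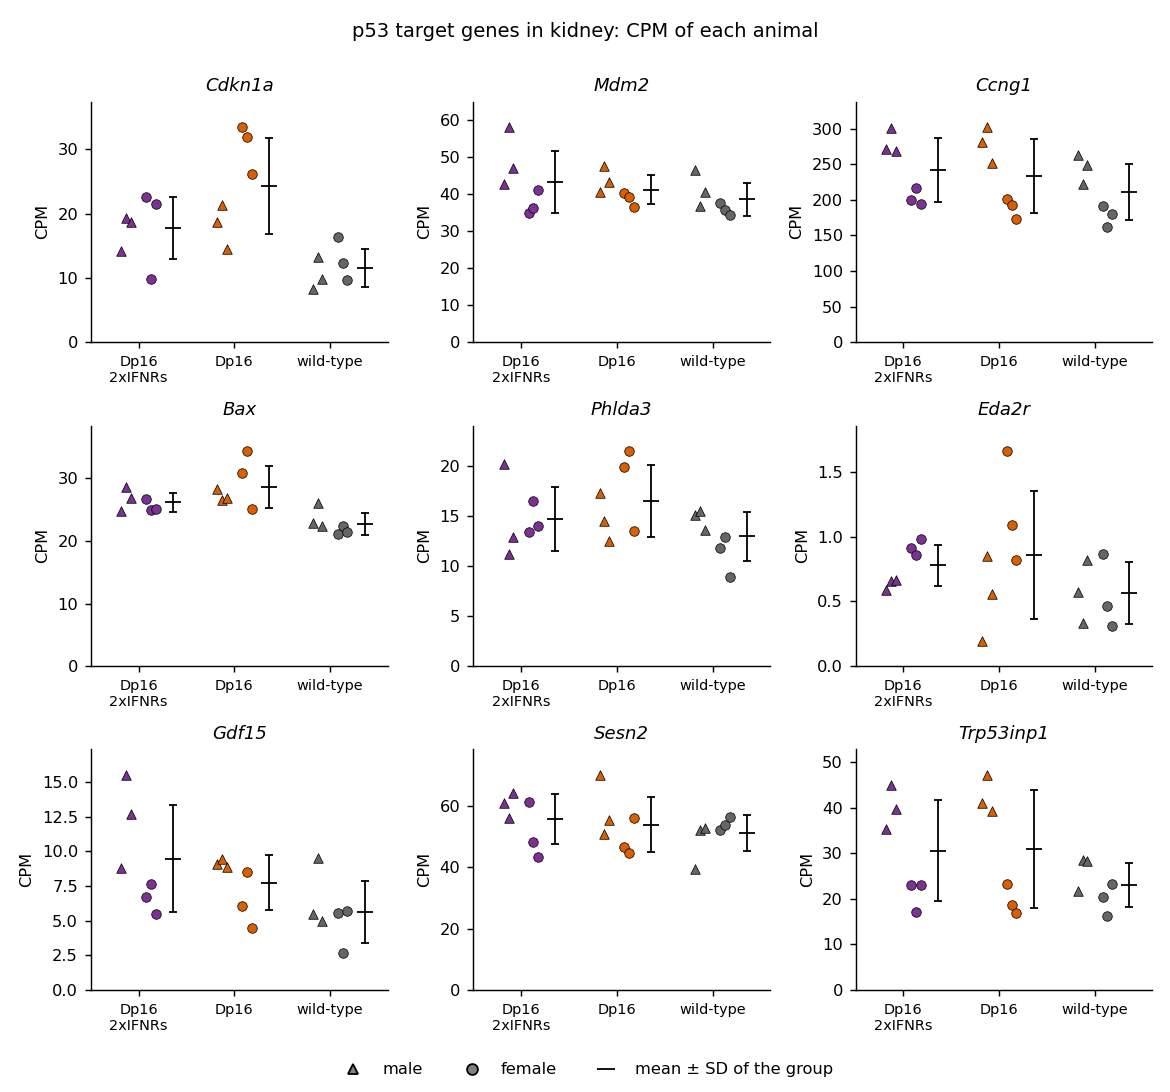
CPM of each of the 9 tested genes (vertical axes, each from 0) in each animal, with Dp16 2xIFNRs left, Dp16 in the middle and wild-type right. Triangles are males, circles are females and bars give the mean ± SD of 6 animals. Cdkn1a reaches 33.4 CPM in Dp16 and 16.3 CPM in wild-type. In both mutant groups all males lie above all females for Trp53inp1, Ccng1, Gdf15 and Mdm2, and Ccng1 does so in wild-type too. Such a separation within a genotype was not counted over all genes. Cdkn2a, which was not tested, is not drawn.

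Cdkn1a in males measured 14.2, 19.4 and 18.7 CPM in Dp16 2xIFNRs, 18.7, 21.4 and 14.4 CPM in Dp16 and 8.21, 13.2 and 9.76 CPM in wild-type. In females it measured 22.6, 9.84 and 21.5 CPM in Dp16 2xIFNRs, 33.4, 31.9 and 26.2 CPM in Dp16 and 16.3, 12.3 and 9.61 CPM in wild-type. Dp16 animals lay above wild-type animals of the same sex without overlap, in both sexes, and a single Dp16 2xIFNRs female lay as low as wild-type. Each sex held 3 animals a group, and the share of all genes separated in this way within a sex was not counted. Group means were 17.7 ± 4.82 CPM in Dp16 2xIFNRs, 24.3 ± 7.51 CPM in Dp16 and 11.6 ± 2.97 CPM in wild-type (SD, n = 6 each). The log2 fold between Dp16 and wild-type was 1.05 ± 0.20 (SE, edgeR adjusted p = 0.00399, 95% interval 0.64 to 1.45).

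Bax in males measured 24.8, 28.7 and 26.9 CPM in Dp16 2xIFNRs, 28.3, 26.6 and 26.9 CPM in Dp16 and 22.9, 26.1 and 22.3 CPM in wild-type. In females it measured 26.6, 24.9 and 25.2 CPM in Dp16 2xIFNRs, 30.8, 34.3 and 25.1 CPM in Dp16 and 21.1, 22.3 and 21.4 CPM in wild-type. The Dp16 values lay above the wild-type values within each sex, a separation that was not counted over all genes. The spread among Dp16 females was wider than in any other group. Over both sexes, Bax averaged 26.2 ± 1.51 CPM in Dp16 2xIFNRs, 28.7 ± 3.37 CPM in Dp16 and 22.7 ± 1.81 CPM in wild-type (SD, n = 6 each). The log2 fold of Bax between Dp16 and wild-type was 0.34 ± 0.08 (SE, edgeR adjusted p = 0.0144). When only the Dp16 and wild-type libraries entered the fit, the log2 fold of Bax was 0.33 with an edgeR adjusted p of 0.0554, while Cdkn1a was still called.

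Between Dp16 2xIFNRs and wild-type, 0 of the 9 genes were called by edgeR, against 4.79% of all genes, although all 9 folds were again above 0, as were 51.5% of those of all genes. The median was 0.21, and 5 of the 9 genes had an unadjusted p under 0.05, against 18.2% of all genes. Gdf15, a secreted cytokine of the TGF-beta family that signals cell stress, came nearest with a log2 fold of 0.71 ± 0.21 (SE, edgeR adjusted p = 0.0534). Cdkn1a followed with 0.63 ± 0.19 (SE, edgeR adjusted p = 0.0695) and Ccng1 with 0.20 ± 0.06 (SE, edgeR adjusted p = 0.0859). DESeq2 called 2 of the 9 genes in this comparison, Cdkn1a and Gdf15. Limma on log2 RPKM called 3, which were Ccng1, Bax and Gdf15. Over 18 fits that each left out 1 library, the log2 fold of Cdkn1a was 0.54 to 0.78. The edgeR adjusted p was 0.00693 to 0.174, and 1 of these fits called it. That fit lacked Dp16 2xIFNRs replicate 4, the library of its group lowest in Cdkn1a, so its higher fold follows from the value left out. Both comparisons with wild-type use the same 6 wild-type animals, so their folds are not independent of each other.

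Gdf15 in males measured 8.77, 15.5 and 12.7 CPM in Dp16 2xIFNRs, 9.06, 9.42 and 8.90 CPM in Dp16 and 5.45, 9.53 and 4.95 CPM in wild-type. In females it measured 6.67, 7.62 and 5.49 CPM in Dp16 2xIFNRs, 6.09, 8.48 and 4.50 CPM in Dp16 and 5.56, 2.64 and 5.71 CPM in wild-type. The groups overlapped in both sexes, with 1 wild-type male as high as the Dp16 males. Means were 9.46 ± 3.85 CPM in Dp16 2xIFNRs, 7.74 ± 1.99 CPM in Dp16 and 5.64 ± 2.22 CPM in wild-type (SD, n = 6 each). Between Dp16 and wild-type the log2 fold of Gdf15 was 0.46 ± 0.21 (SE, edgeR adjusted p = 0.253).

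**Figure D2:**
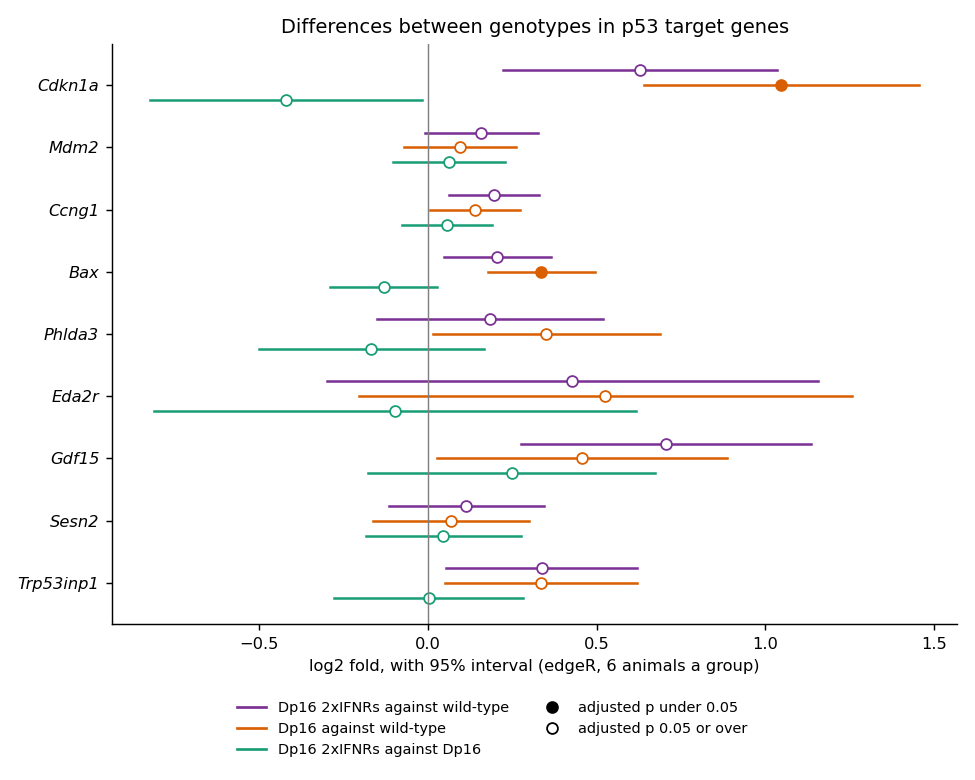
Log2 folds of the 9 tested genes (horizontal axis) with 95% intervals in the 3 comparisons of genotypes, 6 animals a group. Filled points have an edgeR adjusted p under 0.05, which in these comparisons holds for Cdkn1a at 1.05 and Bax at 0.34 in Dp16 against wild-type.

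Between Dp16 2xIFNRs and Dp16, 0 of the 9 genes were called by edgeR, against 0.0171% of all genes, and 0 by DESeq2 or by limma on RPKM. Of the 9 genes, 1 had an unadjusted p under 0.05, against 4.71% of all genes. It was Cdkn1a, with a log2 fold of -0.42 ± 0.19 (SE, 95% interval -0.82 to -0.02, edgeR adjusted p = 0.850). The interval for Bax ran from -0.29 to 0.03, that for Phlda3 from -0.50 to 0.17 and that for Gdf15 from -0.18 to 0.67. The narrowest interval was that of Ccng1, from -0.08 to 0.19, and the widest was that of Eda2r, from -0.81 to 0.62. For none of the 9 genes did the test separate the 2 genotypes after adjustment. Each interval leaves room for differences as large as its ends. That of Cdkn1a lies wholly below 0 and reaches -0.82, and that of Bax reaches only 0.03 above 0. The intervals given for Phlda3, Gdf15, Ccng1 and Eda2r leave room in either direction.

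Mdm2 and Ccng1, the feedback regulator and a cyclin-like target that binds it, were not called in any comparison of genotypes. Mdm2 had a lowest, median and highest level of 34.8, 41.9 and 58.0 CPM in Dp16 2xIFNRs, of 36.5, 40.3 and 47.6 CPM in Dp16 and of 34.3, 37.2 and 46.5 CPM in wild-type. Ccng1 had 194, 243 and 301 CPM in Dp16 2xIFNRs, 174, 227 and 302 CPM in Dp16 and 162, 207 and 263 CPM in wild-type, again as the lowest, median and highest. For both genes the groups overlapped almost fully over the sexes, and within each sex Ccng1 of Dp16 2xIFNRs lay above wild-type. The share of all genes separated so within a sex was not counted. The log2 folds between Dp16 and wild-type were 0.10 ± 0.08 for Mdm2 (SE, edgeR adjusted p = 0.612) and 0.14 ± 0.06 for Ccng1 (SE, edgeR adjusted p = 0.262).

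Of the genes linked to cell death, Phlda3, a repressor of the kinase Akt, had a lowest, median and highest level of 11.2, 13.7 and 20.3 CPM in Dp16 2xIFNRs, of 12.5, 15.9 and 21.5 CPM in Dp16 and of 8.95, 13.2 and 15.6 CPM in wild-type. Eda2r, a receptor of the tumour necrosis factor family, had 0.590, 0.760 and 0.985 CPM in Dp16 2xIFNRs, 0.192, 0.832 and 1.66 CPM in Dp16 and 0.313, 0.520 and 0.867 CPM in wild-type. Over both sexes these groups overlapped for both genes, and Eda2r rested on 10 to 81 counts a library. Phlda3 in females measured 13.5 to 16.5 CPM in Dp16 2xIFNRs, 13.5 to 21.5 CPM in Dp16 and 8.95 to 12.9 CPM in wild-type. The mutant females thus lay above wild-type, while the males of the groups overlapped. How many of all genes were separated so within a sex was not counted. Between Dp16 and wild-type the log2 fold was 0.35 ± 0.16 for Phlda3 (SE, edgeR adjusted p = 0.260) and 0.53 ± 0.35 for Eda2r (SE, edgeR adjusted p = 0.493).

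Sesn2, a stress-induced inhibitor of the growth regulator mTORC1, had the smallest folds from wild-type of the 9 tested genes in both mutant groups, over both sexes. Its means in males were 60.3 CPM in Dp16 2xIFNRs, 58.7 CPM in Dp16 and 48.1 CPM in wild-type. In females the means were 51.0, 49.1 and 54.2 CPM in the same groups, so both mutant means lay below wild-type. Sesn2 was not called within either sex. Its lowest, median and highest levels were 43.2, 58.4 and 64.1 CPM in Dp16 2xIFNRs, 44.8, 53.1 and 69.9 CPM in Dp16 and 39.5, 52.5 and 56.5 CPM in wild-type. The log2 fold was 0.11 ± 0.11 between Dp16 2xIFNRs and wild-type (SE, edgeR adjusted p = 0.635) and 0.07 ± 0.11 between Dp16 and wild-type (SE, edgeR adjusted p = 0.827).

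Cdkn2a encodes the inhibitor p16Ink4a and, from another reading frame, p19Arf, which restrains Mdm2, and counts per gene do not separate them. It had 28 counts over all 18 libraries, 12 in the 6 Dp16 2xIFNRs, 12 in the 6 Dp16 and 4 in the 6 wild-type libraries. Of the 12 counts in Dp16 2xIFNRs, 10 came from a single female. The gene had 0 counts in 9 libraries, and a count of 0 allows up to 3 counts at the same depth, so a difference was not detectable here. The exact two-sided permutation test within sex gave p = 0.86 for Dp16 2xIFNRs against wild-type, p = 0.175 for Dp16 against wild-type and p = 0.49 for Dp16 2xIFNRs against Dp16, with 0.005 the smallest p it can give.

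More of these genes were called between the sexes than between genotypes, as held for all genes. Between males and females, 4 of the 9 genes were called, near the share of all genes called, 38.8%. All 4 were higher in males, as were 19% of all genes. Ccng1 measured 222 to 302 CPM in the 9 males and 162 to 217 CPM in the 9 females, with no overlap, and 5.96% of all genes had every male above every female. Its log2 fold was 0.49 ± 0.05 (SE, edgeR adjusted p = 2.68e-07). Trp53inp1, whose product promotes p53-dependent cell death and autophagy, had the steepest difference, at 0.81 ± 0.11 (SE, edgeR adjusted p = 7.67e-06). Gdf15 was higher in males by 0.65 ± 0.17 (SE, edgeR adjusted p = 0.00416) and Mdm2 by 0.26 ± 0.07 (SE, edgeR adjusted p = 0.00339). Cdkn1a had a log2 fold of -0.37 ± 0.16 (SE, edgeR adjusted p = 0.0755) and Eda2r of -0.54 ± 0.28 (SE, edgeR adjusted p = 0.142), and Bax, Phlda3 and Sesn2 lay within 0.11 of 0. Within single genotypes, 4 of the 9 genes were called in Dp16 2xIFNRs (17.7% of all genes), 2 in Dp16 (15.2% of all genes) and 1 in wild-type (18.7% of all genes), each higher in males. Ccng1 was called in all 3 genotypes, Trp53inp1 in Dp16 2xIFNRs and Dp16, and Mdm2 and Gdf15 in Dp16 2xIFNRs alone. The RPKM, which are not rescaled between libraries, put the median of all genes lower in males by a further 0.12 on the log2 scale. On that scale the call of Mdm2 was lost, with a log2 fold of 0.13 and a limma adjusted p of 0.0887, and Cdkn1a and Eda2r were called lower in males.

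**Figure D3:**
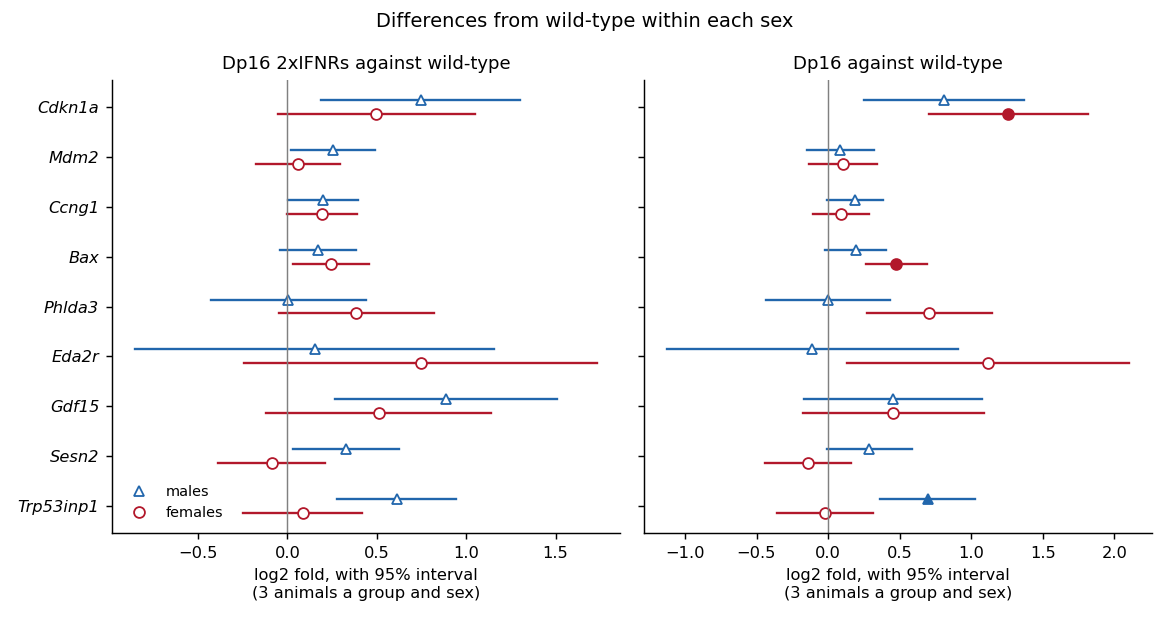
Log2 folds of the 9 tested genes from wild-type (horizontal axes, with 95% intervals) in males and in females, for Dp16 2xIFNRs and for Dp16. Filled points have an edgeR adjusted p under 0.05, and each fold rests on 3 animals a group. Trp53inp1 in Dp16 is at 0.70 in males and at -0.02 in females.

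Trp53inp1 rose in Dp16 males and was not called in Dp16 females. In males it measured 35.3, 45.01 and 39.7 CPM in Dp16 2xIFNRs, 41.0, 47.1 and 39.2 CPM in Dp16 and 21.7, 28.5 and 28.4 CPM in wild-type. In females it measured 23.0, 17.1 and 23.1 CPM in Dp16 2xIFNRs, 23.2, 18.7 and 17.0 CPM in Dp16 and 20.3, 16.1 and 23.2 CPM in wild-type. Males of both mutant groups lay above all wild-type males, and the females of the 3 groups overlapped. The share of all genes with such a separation among males was not counted. In Dp16 against wild-type the log2 fold was 0.70 ± 0.16 in males (SE, edgeR adjusted p = 0.0293) and -0.02 ± 0.16 in females (SE, edgeR adjusted p = 0.970). The test of the difference between the sexes gave 0.72 ± 0.22 with an unadjusted p of 0.00508 and an edgeR adjusted p of 0.532, so it was not called. In Dp16 2xIFNRs against wild-type the log2 fold was 0.61 ± 0.16 in males (SE, edgeR adjusted p = 0.0534) and 0.09 ± 0.16 in females (SE, edgeR adjusted p = 0.945).

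Within males, 1 of the 9 genes was called in Dp16 against wild-type, against 1.71% of all genes, and it was Trp53inp1. Within females, 2 of the 9 were called, against 0.575% of all genes. They were Cdkn1a, with a log2 fold of 1.26 ± 0.26 (SE, edgeR adjusted p = 0.0427), and Bax, with 0.48 ± 0.10 (SE, edgeR adjusted p = 0.0453). In males Cdkn1a had 0.81 ± 0.26 (SE, edgeR adjusted p = 0.149) and Bax 0.19 ± 0.10 (SE, edgeR adjusted p = 0.412). In Dp16 2xIFNRs against wild-type, 0 of the 9 were called by edgeR in males, against 2.07% of all genes called, and 6 had an unadjusted p under 0.05, against 14.1% of all genes. In females 0 were called, against 0.324% of all genes called, and 1 had an unadjusted p under 0.05, against 9.71% of all genes.

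The tests of whether the difference from wild-type differed between the sexes called 0 of the 9 genes for Dp16 2xIFNRs, against 0.00569% of all genes, and 0 for Dp16, against 0.0171% of all genes. At an unadjusted p under 0.05 there was 1 gene for Dp16 2xIFNRs, Trp53inp1, against 3.53% of all genes. There were 3 for Dp16, against 7.85% of all genes. Beside Trp53inp1 these were Phlda3, with a male minus female difference of -0.71 ± 0.29 (SE, edgeR adjusted p = 0.631), and Sesn2, with 0.43 ± 0.20 (SE, edgeR adjusted p = 0.631). No member is thereby shown to respond differently in males and in females.

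The other genes of the pathway, described as lists, held few calls by genotype. Over all genes, 4.79% were called between Dp16 2xIFNRs and wild-type and 4.23% between Dp16 and wild-type. Of 11 tested genes of p53 itself and its regulators, 0 were called by edgeR in either comparison with wild-type. At an unadjusted p under 0.05 there were 2 for Dp16 2xIFNRs and 1 for Dp16. Such a p was found for 18.2% of all genes in Dp16 2xIFNRs and 17.1% in Dp16. Trp53, which encodes p53, averaged 28.8 ± 1.88 CPM in Dp16 2xIFNRs, 30.7 ± 4.23 CPM in Dp16 and 30.1 ± 5.01 CPM in wild-type (SD, n = 6 each). Of 28 other p53 targets, 2 were called between Dp16 2xIFNRs and wild-type and 1 between Dp16 and wild-type, which is near the share of all genes called. Zmat3, an RNA-binding protein induced by p53, was called in both, with log2 folds of 0.44 ± 0.09 in Dp16 2xIFNRs (SE, edgeR adjusted p = 0.00468) and 0.33 ± 0.09 in Dp16 (SE, edgeR adjusted p = 0.0345). Perp, a p53 target of cell adhesion, was lower in Dp16 2xIFNRs, with a log2 fold of -0.28 ± 0.06 (SE, edgeR adjusted p = 0.0145). The median log2 fold of these 28 targets was 0.14 in both comparisons.

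Of 16 other genes of cell cycle exit and senescence, 1 was called in each comparison with wild-type, and in both it was Cdkn1c. The shares of all genes called were 4.79% for Dp16 2xIFNRs and 4.23% for Dp16. This gene encodes p57, an inhibitor of cyclin-dependent kinases, and its log2 fold was 0.44 ± 0.06 in Dp16 2xIFNRs (SE, edgeR adjusted p = 0.000419) and 0.47 ± 0.06 in Dp16 (SE, edgeR adjusted p = 0.000183).

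Of 24 proliferation genes, 2 were called between Dp16 2xIFNRs and wild-type and 1 between Dp16 and wild-type. The shares of all genes called in these comparisons were 4.79% and 4.23%. E2f1, a transcription factor of the G1 to S transition, was higher in both, by 0.48 ± 0.10 in Dp16 2xIFNRs (SE, edgeR adjusted p = 0.00722) and by 0.42 ± 0.10 in Dp16 (SE, edgeR adjusted p = 0.0167). Tyms, thymidylate synthase, had a log2 fold of -0.36 ± 0.09 in Dp16 2xIFNRs (SE, edgeR adjusted p = 0.0241). The median log2 folds of the list were 0.04 and 0.11 in the 2 comparisons. The integrated stress response is a pathway that also induces Gdf15 and Sesn2. Of its 13 tested genes, 0 were called by edgeR in Dp16 2xIFNRs. An unadjusted p under 0.05 was found for 3 of them, against 18.2% of all genes. In Dp16 1 was called, Nupr1, a stress-induced chromatin protein, with 0.44 ± 0.09 (SE, edgeR adjusted p = 0.00716). Of 9 other genes of the BCL2 family, to which Bax belongs, and of 11 genes that respond to glucocorticoid or the clock, 0 were called by edgeR in either comparison. At an unadjusted p under 0.05 there was 1 of the BCL2 family in each comparison, and of the other list 1 in Dp16 2xIFNRs and 0 in Dp16. The shares of all genes at such a p were 18.2% for Dp16 2xIFNRs and 17.1% for Dp16. Between Dp16 2xIFNRs and Dp16, 0 genes of any of these lists were called by edgeR, against 0.0171% of all genes. At an unadjusted p under 0.05 there were 2 p53 regulators, 1 other p53 target and 1 gene of cell cycle exit, against 4.71% of all genes.

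**Figure D4:**
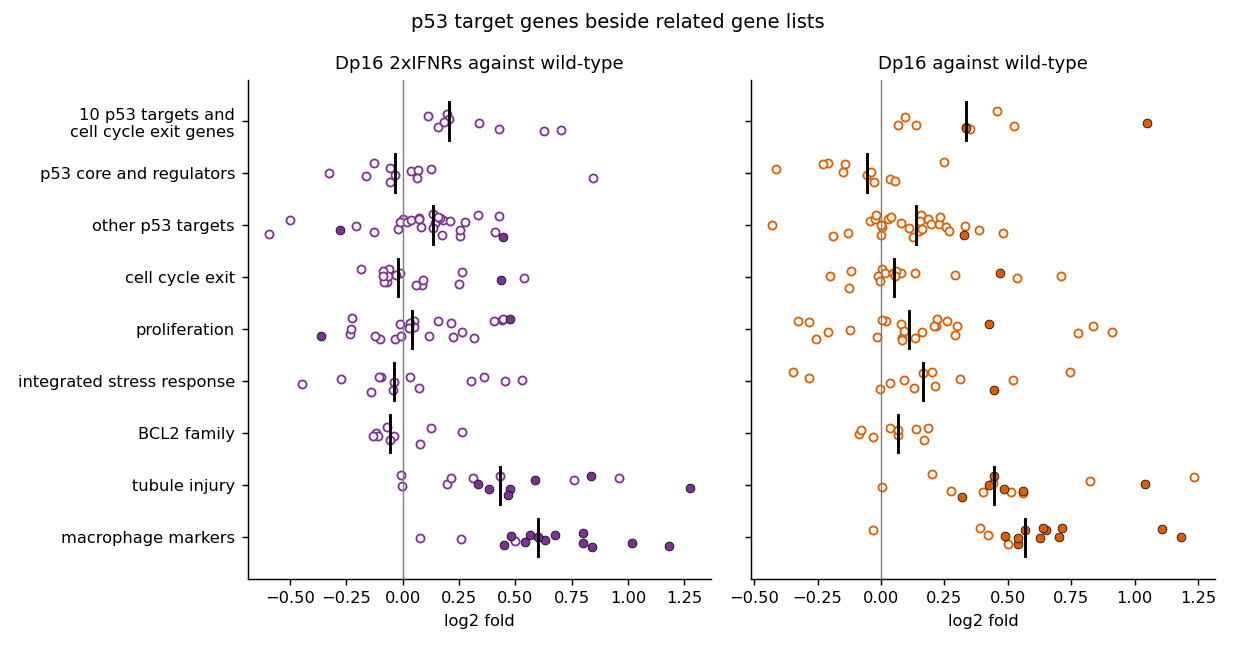
Log2 folds of single genes (points, horizontal axes) in the 10 genes described here and in related lists, beside wild-type for Dp16 2xIFNRs and for Dp16. Filled points have an edgeR adjusted p under 0.05. The vertical tick of each list is its median, which for the 9 tested genes is 0.21 in Dp16 2xIFNRs and 0.34 in Dp16, and for the 28 other p53 targets is 0.14 in both.

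Between males and females 38.8% of all genes were called, and the counts of these lists are to be read beside that share. Of the 11 p53 regulators 3 were called, all higher in males, among them Trp53 with a log2 fold of 0.21 ± 0.07 (SE, edgeR adjusted p = 0.0172), Usp7 and Chek2. Of the 28 other p53 targets, 8 were higher in males and 5 lower, near the share of all genes called. Those higher included Rrm2b at 0.49, Aen at 0.35 and Ddit4 at 0.98, and those lower included Trp53i11 at -0.51, Ak1 at -0.30 and Sesn1 at -0.20. Genes of cell cycle exit were called in 7 of 16 cases, near the share of all genes called. Of these, 1 was higher in males, the lysosomal enzyme Glb1 at 0.62, and 6 were lower, with Cdkn1c at -0.48, Igfbp7 at -0.49 and Rb1 at -0.42. In the integrated stress response 5 of 13 were lower in males and 0 higher, with Nupr1 at -0.40, Ddit3 at -0.62 and Ppp1r15a at -0.35. Of the BCL2 family 1 of 9 was higher, Bad at 0.19, and 5 were lower, with Bmf at -0.54, Bcl2l1 at -0.21 and Mcl1 at -0.19.

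Markers of other cells moved with genotype beside Cdkn1a and Bax. Over all genes, 4.79% were called in either direction for Dp16 2xIFNRs against wild-type and 4.23% for Dp16 against wild-type. Of 15 macrophage markers, 12 were higher in Dp16 2xIFNRs and 11 in Dp16 than in wild-type, and their summed level was 295 to 389 CPM in Dp16 2xIFNRs, 311 to 379 CPM in Dp16 and 197 to 278 CPM in wild-type. Of 14 lymphocyte markers, 4 were higher in Dp16 2xIFNRs and 6 in Dp16, with sums of 152 to 476 CPM in Dp16 2xIFNRs, 204 to 703 CPM in Dp16 and 82.2 to 137 CPM in wild-type. Of 15 genes that mark injured tubules, 7 were higher in Dp16 2xIFNRs and 6 in Dp16. Their sums were higher in females than in males in each genotype. Males had 1316 to 1419 CPM in Dp16 2xIFNRs, 1363 to 1420 CPM in Dp16 and 1021 to 1103 CPM in wild-type. Females had 2224 to 2374 CPM in Dp16 2xIFNRs, 1933 to 2636 CPM in Dp16 and 1751 to 2075 CPM in wild-type. None of the macrophage, lymphocyte and tubule injury markers was at 0 in all libraries of a group. Between Dp16 2xIFNRs and Dp16, 0 markers of these 3 lists were called by edgeR, against 0.0171% of all genes. An unadjusted p under 0.05 was found for 2 lymphocyte markers, against 4.71% of all genes. The part of these cells in the values of the 10 genes was not tested.

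Once genotype and sex were taken out, correlations among the 9 tested genes ran in both directions, and none passed the adjustment over pairs. Of their 36 pairs, 22 had a positive Pearson correlation of log2 CPM over the 18 animals, with a median of 0.14, and 0 had an adjusted permutation p under 0.05. The highest was that of Bax and Gdf15, at r = 0.52 (rho = 0.43, permutation p = 0.0254 and 0.0792, adjusted 0.288 and 0.285), and r was 0.25 without the 2 animals farthest from the median of Bax. The lowest was that of Eda2r and Sesn2, at r = -0.60 (rho = -0.53, permutation p = 0.00834 and 0.0262, adjusted 0.281 and 0.241). It was -0.36 without the 2 animals farthest from the median of Eda2r. For Cdkn1a and Bax, r was 0.50 (rho = 0.49, permutation p = 0.0359 and 0.0402, adjusted 0.288 and 0.241), and 0.54 without the 2 farthest animals.

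**Figure D5:**
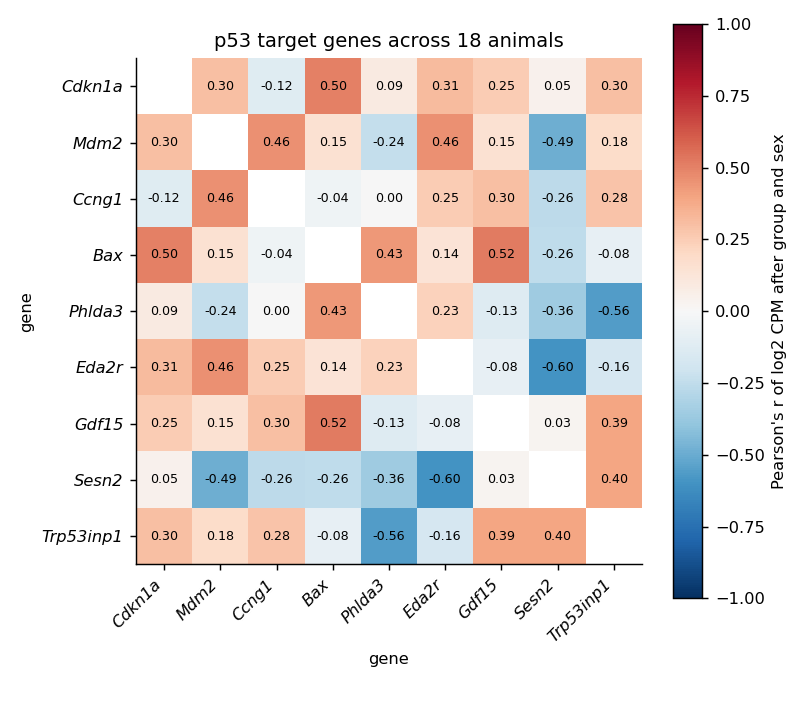
Pearson correlations among the 9 tested genes, as log2 CPM after group and sex are taken out, over 18 animals. Rows and columns are genes, and colour and number give r. The highest is 0.52 for Bax and Gdf15, and the lowest is -0.60 for Eda2r and Sesn2.

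Genes outside the set followed Cdkn1a more closely than any member did, as they were picked for it out of 13846 genes. The 5 most like it over the 18 libraries after genotype and sex were Mterf4 (r = 0.85), Ppp1cc (r = 0.83), Rabggtb (r = 0.82), Dtnbp1 (r = 0.80) and Sil1 (r = 0.79). After sex alone, with the genotype difference kept, these values were 0.64, 0.36, 0.33, 0.27 and 0.35. Most like the mean of the 9 genes were Tmem159 (r = 0.91), Stmn1 (r = 0.87), Gm19950 (r = 0.86), Bpnt1 (r = 0.86) and Bfar (r = 0.85). These are the highest of many values, share libraries and depth, and carry no test.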

How the data were processed

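PolyA RNA of kidney was sequenced from 18 mice. Per the submitters' processing notes, the tools named are HISAT2 2.1.0, HTSeq 0.6.1, SAMtools 1.5, FastQC 0.11.5 and bcl2fastq, with the build GRCm38. Per the labels' protocols the libraries were strand-specific, and the strand setting of the counting is not given in the sources used here. The authors deposited raw counts per gene and, for the same genes, RPKM values, whose making is not given in the sources used here. Counts divided by RPKM gave 1 length per gene within 0.1% in 11514 of 11514 genes checked.

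Counts were tested in 1 fit of all 18 libraries (42157790 to 57814587 counts each) with edgeR 4.0.16 in R 4.3.3, with quasi-likelihood F tests, TMM normalization and genotype and sex as terms. Low genes were removed with filterByExpr at settings of 10 for the count and 15 for the total, and 37810 genes did not pass. Benjamini-Hochberg adjustment of two-sided p-values covered all 17575 genes, with a threshold of 0.05. SEs are the fold's size over the square root of F. Within-sex folds and tests of the sex difference came from a fit with the product of genotype and sex. Log2 CPM used a prior count of 2. Cdkn2a, under the filter, was tested by an exact permutation within sex over all 400 ways. Correlations used 100000 permutations.

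The alternatives changed the size factors (RLE), the filter (none, or average log2 CPM over 1), the terms (sex left out, age added, sample number blocked), the libraries (2 groups at a time, or 1 library left out) or the tool. The tools were DESeq2 1.42.0, limma-voom (limma 3.58.1) with a random effect for the number that ends each description, and limma-trend on log2(RPKM + 0.1) or log2(RPKM + 1). On simulated counts of 17575 genes, the test for Dp16 against wild-type recovered 58% of those altered 1.5-fold and 77% of those altered 2-fold, and called 3 unaltered genes. There 100 genes were altered at each fold, no gene differed between the sexes, and the spread was estimated from these data. No 2 libraries of a group were duplicates (lowest chi-square per degree of freedom 19.3).

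The members and lists were chosen with earlier results of these data known. The genes named are all 10 members, up to 3 higher and 3 lower called genes of each pathway list by smallest p, and the 5 genes most like Cdkn1a or the members' mean by residual correlation. Marker lists are given by counts and summed levels, with Slc34a1 and Umod added after their values were seen. A further result is not reported here.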

Additional observations from a re-analysis of the deposited data

Results flagged for a closer look

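In 3 of 30 sets of 6 animals (10 genes in 3 genotypes) the highest or lowest animal stood apart from the others by more than Dixon's criterion at the 95% level allows, and chance alone flags about 1 set in 20. Bax in wild-type replicate 3, a male, was the highest at 26.1 CPM, with the next at 22.9 CPM. Sesn2 in wild-type replicate 1, a male, was the lowest at 39.5 CPM, with the next at 51.9 CPM. Cdkn2a in Dp16 2xIFNRs replicate 5, a female, was the highest at 0.167 CPM, which is 10 counts, with the next at 0.0360 CPM. Leaving out any 1 library left the log2 fold of Bax between Dp16 and wild-type at 0.27 to 0.38 and called in 18 of 18 fits.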

How the results depend on the processing

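Over 29 alternatives, no called value turned its sign. Of 1364 values of single genes, 1336 stayed on their side of the threshold, 52 of them uncalled with a change of sign, 3 lost and 25 gained a call. Cdkn1a was called between Dp16 and wild-type in 29 of 29 and Bax in 28 of 29. The count of genes called there was 1 with only the 2 groups compared, and 2 whichever library was left out. Between Dp16 2xIFNRs and wild-type, where 0 were called, the count was 2 without a filter, 2 with DESeq2, 1 with the description number as a random block, and 3 on RPKM with either pseudocount. Leaving out a library gave 0 to 1 there: Gdf15 was called without wild-type replicate 3 or 6 or Dp16 replicate 3, and Cdkn1a without Dp16 2xIFNRs replicate 4. The cause was not tested. Between males and females left-out libraries gave 4 to 5, and elsewhere 0.

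With the replicate number as a block, 2 genes were called between Dp16 2xIFNRs and wild-type, Cdkn1a and Gdf15. After group and sex, 7 of 18 same-numbered pairs correlated over 0.1 (-0.17 to 0.20). The own number was the best in 13 of 36 checks, each among 6 libraries. No count for unrelated numbers was made, so these checks do not settle whether same-numbered libraries share more than a number.

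Over all genes, calls for Dp16 2xIFNRs against wild-type and Dp16 against wild-type were 841 and 744, and became 1263 and 1200 with DESeq2, 234 and 190 without the sex term, and 765 and 453 with 2 groups. Eda2r and Cdkn2a are limited by depth, at 10 to 81 and 0 to 10 counts a library.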
